A study of Homo sapiens with 12 samples.

Results

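A set of 48 genes of the interferon response and of nucleic acid sensing was followed through the loss of ribonucleotide reductase subunit RRM1 in Ewing sarcoma cells. The rule that picks them uses gene names alone, but the names were chosen with earlier results of these data known. Every one of the 48 names was looked up in the table of counts. Of the 48 genes, 43 had counts among the 20771 genes of the table and 42 were tested among 16515. RNA was sequenced in 12 libraries from 2 human Ewing sarcoma lines, EW8-RRM1-KO and its counterpart TC71-RRM1-KO. In both lines the endogenous RRM1 gene was knocked out with CRISPR/Cas9, and RRM1 protein came from a codon-optimized transgene that doxycycline switches on. Libraries labelled 0 h are cells kept in doxycycline, and libraries labelled 48 h are cells from which doxycycline had been removed for 48 hours, with 3 libraries of each kind in each line. Each line was grown from a single clone, and an effect of doxycycline itself cannot be told apart from that of losing the transgene, because all libraries at 48 h lack the drug. No label says that the 3 libraries of a group came from separate cultures, so p-values measure the spread between these libraries, which may be technical.

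RRM1 is the large, catalytic subunit of ribonucleotide reductase, the enzyme that makes deoxynucleotides for DNA synthesis. Cells read misplaced DNA through cGAS and its partner STING, and double-stranded RNA through the helicases RIG-I (DDX58) and MDA5 (IFIH1). Both routes activate interferon regulatory factors such as IRF3 and IRF7, which can induce interferons and, directly, some antiviral genes. Secreted interferon acts on its receptors through JAK kinases and a complex that holds STAT2 and IRF9, which binds the interferon-stimulated response element (ISRE) in promoters of the induced genes. These gene products block the copying, translation or release of viruses, and some of them are sensors themselves, so that the response feeds back on its own start.

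Total counts came to between 18468485 and 35698991 per library, and the biological coefficient of variation between replicates was 4.17%. Replicate 3 of TC71 at 48 h stood apart from replicates 1 and 2 of its group, with a chi-square per gene of 7.83 and 9.48 against them, while the other replicate pairs of the 4 groups had 2.05 to 5.12. Its share of mitochondrial counts was 2.68%, against 3.97% and 3.99% in the other 2. RRM1 itself was at 9.37, 9.51 and 9.67 CPM (counts scaled to library size with TMM factors) in EW8 at 0 h and at 63.9, 72.6 and 74.1 CPM at 48 h, and in TC71 at 15.7, 15.5 and 17.3 CPM before and 25.7, 26.4 and 24.1 CPM after removal of the drug. The edgeR test gave log2 fold changes of 2.88 (adjusted p = 3.37e-27) in EW8 and 0.65 (adjusted p = 2.91e-09) in TC71, both upward. The transgene is codon optimized, and whether these reads come from it or from the endogenous gene was not tested. The counts therefore do not check its withdrawal. All 10 Ewing sarcoma markers looked up were present, with a sum of 3023 to 3353 CPM over the 12 libraries, of which CCND1 was the largest part. In EW8, BCL11B, CD99 and PRKCB fell (log2 fold changes -1.11, -0.45 and -0.33) and the others rose, NR0B1 the most (0.98). Of 7 leukocyte markers, 3 were in the table, and their sum was 0.115 to 0.350 CPM per library in EW8 at 0 h and 0.602 to 0.832 CPM at 48 h, mostly through ITGAM (0.0248 ± 0.0225 and 0.523 ± 0.118 CPM, SD, n = 3). Markers such as CD3E, LYZ and CD68 have no values in the table, and PTPRC stayed at or below 5 counts in each library. Of 5 fibroblast markers, 3 were in the table (COL1A1, DCN and LUM), with sums of 28.6 to 30.7 CPM in EW8 at 0 h and 62.6 to 69.3 CPM at 48 h, and of 36.3 to 39.8 and 60.4 to 63.3 CPM in TC71. The part of these markers in the results was not tested. In bulk RNA, fewer cells that express a gene and less RNA of it per cell cannot be told apart.

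After removal of doxycycline, many interferon-induced genes were higher in EW8 and fewer in TC71. In EW8, OASL, RSAD2, IFIT2, GBP1, GBP2, IFIT3 and DHX58 rose most, and the abundant members IFIT2, IFIT3 and ISG15 reached 99.0, 68.0 and 41.7 CPM on average. RSAD2, GBP1 and DHX58 had 2, 13 and 16 counts over the 3 EW8 libraries at 0 h, so their rank is not firm. In TC71, 6 genes passed a fold of 2 at an adjusted p below 0.05 (IFIT2, IFIT3, GBP2, RSAD2, OAS1 and SAMD9), against 3.26% of all genes tested. All of them also passed it in EW8, as did 85.3% of all genes upregulated in TC71. The calls of RSAD2, OAS1 and SAMD9 in TC71 were lost under some alternatives. The DNA sensor CGAS, STING1 and the kinase EIF2AK2 stayed within 0.21 of 0 on the log2 scale in both lines, and IFIT5 fell in both. ADAR fell in both as well, but in EW8 this call depended on how libraries were scaled.

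With the quasi-likelihood test of edgeR, a gene is called upregulated or downregulated here when its fold exceeds 2 and its adjusted p (Benjamini-Hochberg over all genes tested) is below 0.05, and is said to have risen or fallen at that adjusted p alone. In EW8, 19 of the 42 tested genes were upregulated, against 13.9% of all genes tested, and none was downregulated (0 also with DESeq2, and 3 lower at an unadjusted p below 0.05, none of them past a fold of 2). At the adjusted p alone, 32 rose, against 37.0% of all genes, and 3 fell, against 31.6%. In TC71, 6 were upregulated, against 3.26% of all genes tested, and 22 rose, against 22.9%. Without replicate 3 of TC71 at 48 h, upregulated genes were 18 in EW8 (BST2 was lost) and 4 in TC71 (OAS1 and SAMD9 were lost). None was downregulated in TC71 (0 also with DESeq2, and 3 lower at an unadjusted p below 0.05), while 2 fell, against 19.2% of all genes. The median log2 fold change of the 42 genes was 0.89 in EW8 and 0.42 in TC71, and that of all genes tested was 0.03 and 0.00. Scaling by total counts in place of TMM factors moved the median of all genes to 0.16 and 0.05, so changes of this size are relative to the scaling. At the adjusted p alone, 34 of the 42 genes then rose in EW8, against 43.6% of all genes, and 1 fell, against 24.4%, and in TC71 26 rose, against 28%, and 2 fell, against 14.2%. GBP1, HERC6, OAS1 and DHX58 averaged at least 10 counts only in EW8 at 48 h, so that they entered the test through the group in which they were high. IFI27 did so only in TC71 at 0 h, and RSAD2 only at 48 h in the 2 lines. In 34 of the 42 genes, all 3 EW8 libraries at 48 h lay above all 3 at 0 h in CPM, which holds for 37.9% of all genes tested, and in 3 all lay below, against 33.2%. In TC71, 28 lay above, against 25.9%, and 2 below, against 23.7%. MX1, MX2, SAMD9L, XAF1 and EPSTI1 have no values in the table, and OAS2 had too few counts to be tested.

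**Figure D1:**
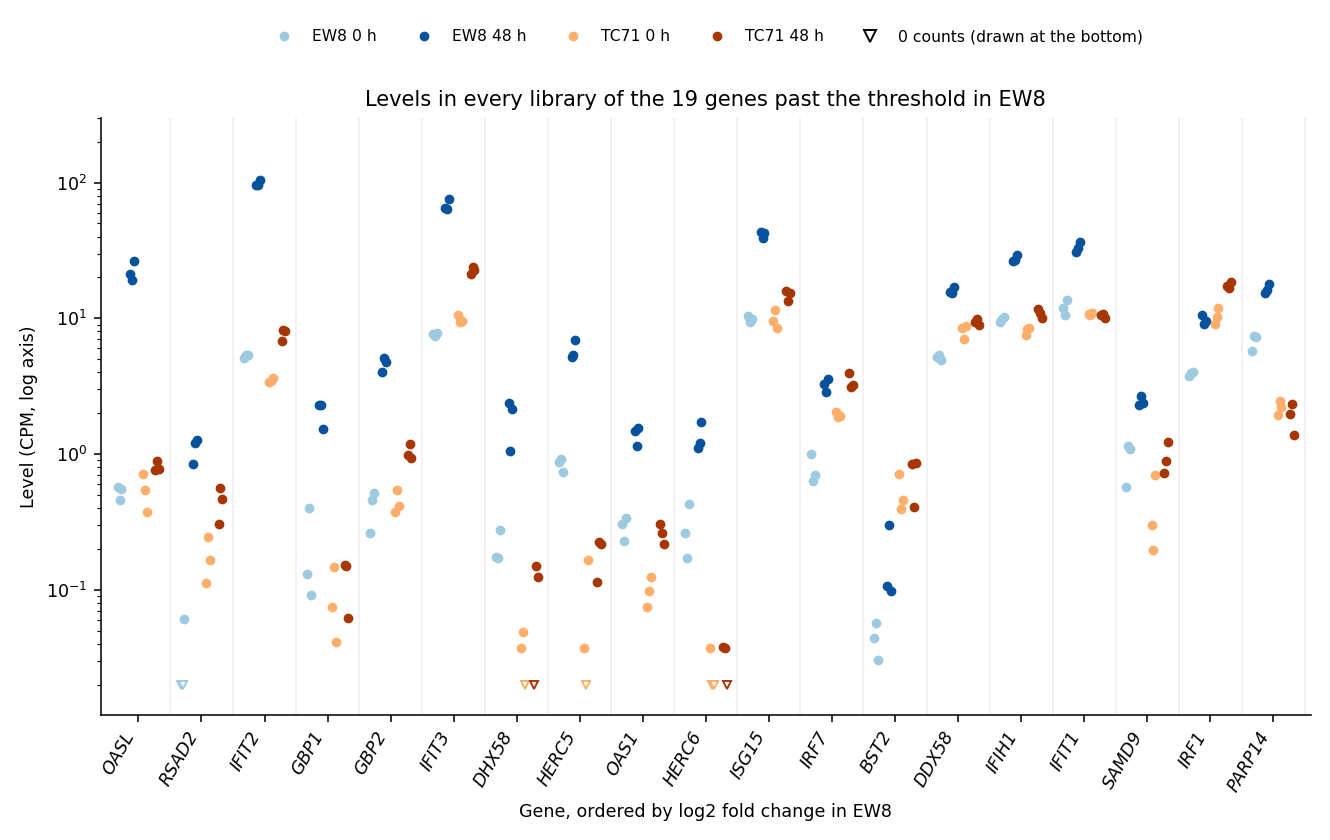
CPM on a log axis in each of the 12 libraries for the 19 genes upregulated in EW8, ordered by their log2 fold change there, with 1 point per library and open triangles for libraries at 0 counts. All 3 EW8 libraries at 48 h lie above all 3 at 0 h for every gene shown, while the TC71 libraries overlap between times for IFIT1, PARP14, BST2, HERC5, HERC6, DHX58 and GBP1.

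**Figure D2:**
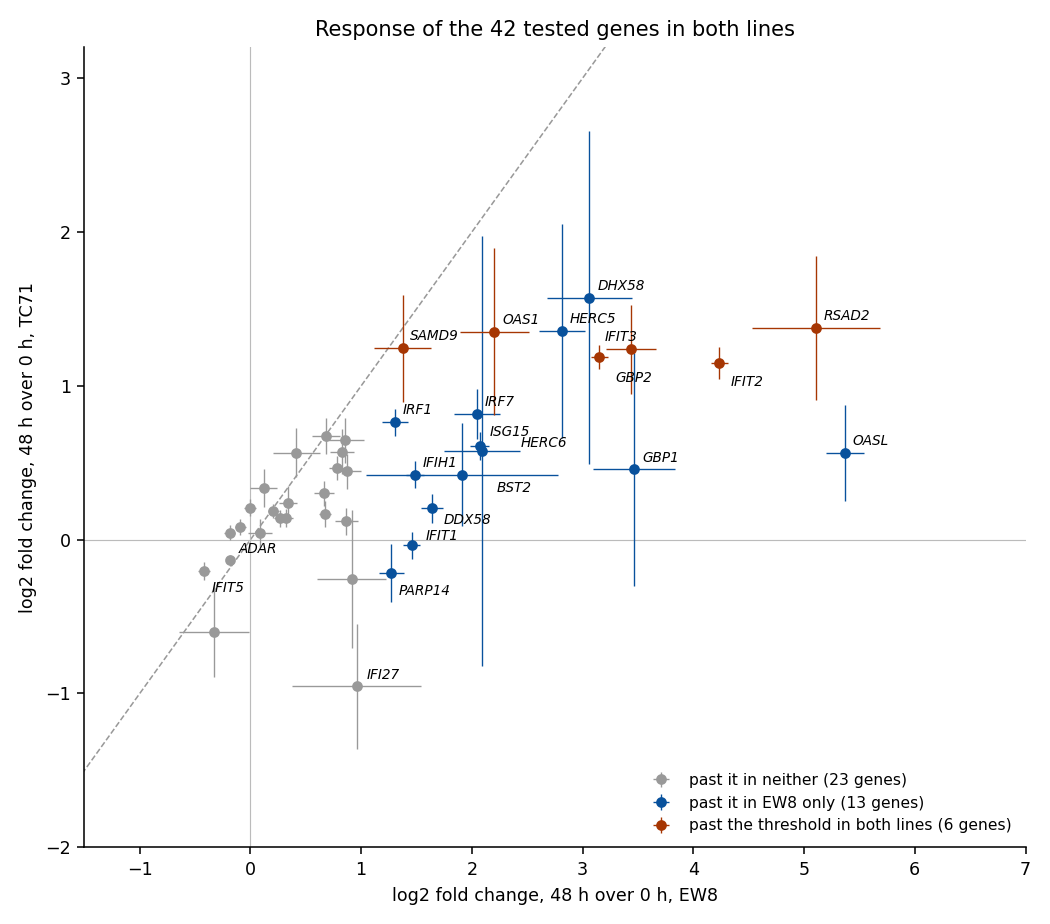
Log2 fold changes of the 42 tested genes at 48 h over 0 h, with EW8 on the horizontal and TC71 on the vertical axis, bars of 1 standard error and a dashed line of equal change. The 19 genes past the threshold in EW8 lie below the dashed line, and 6 of them are also past it in TC71.

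The promoter windows of these genes were read for the binding sequence of the interferon-activated complex. Windows run from 250 bases before to 50 bases after the RefSeq start (GRCh38.p14), and 36 of the 48 genes had an entry. A match to the ISRE, spelled GAAANNGAAA on either strand, was found in 21 of the 36 (58.3%) and in 996 of 27305 promoters in all (3.65%). A match to the interferon gamma activated site, TTCNNNGAA on either strand, was found in 8 of the 36 (22.2%), against 7.88% of all promoters. For TGANTCA, the AP-1 site, it was 4 of 36 (11.1%), against 7.76%. A match is a description of letters and not a site of binding, its absence says only that these letters are not in this window, and matches can overlap one another, as in ISG15 and HERC5. The stretches printed here are from genes that were upregulated in EW8 and hold ISRE matches (ISG15, HERC5, IFIT3 and IFIT1), from IFIT5, which fell and holds 3 matches, and from DDX58, which was upregulated with no match in its window. They run from base -170 towards the start and stop before the first annotated exon, except that 26 bases with 1 of its 3 matches are shown for IFIT5. The stretches of ISG15 and IFIT3 lie inside the span of longer annotated models of these genes but outside exons. They are written 5′ to 3′ on the gene's strand, with whole ISRE matches in capitals.
ISG15 (chr1:1013327-1013496, + strand): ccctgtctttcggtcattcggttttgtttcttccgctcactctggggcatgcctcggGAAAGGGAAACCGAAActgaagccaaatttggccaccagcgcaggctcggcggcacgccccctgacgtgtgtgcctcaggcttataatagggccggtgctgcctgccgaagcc
HERC5 (chr4:88456949-88457118, + strand): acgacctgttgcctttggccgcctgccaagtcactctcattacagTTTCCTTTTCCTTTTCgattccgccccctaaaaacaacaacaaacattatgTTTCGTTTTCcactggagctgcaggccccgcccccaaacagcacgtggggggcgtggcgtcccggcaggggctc
IFIT3 (chr10:89327827-89327940, + strand): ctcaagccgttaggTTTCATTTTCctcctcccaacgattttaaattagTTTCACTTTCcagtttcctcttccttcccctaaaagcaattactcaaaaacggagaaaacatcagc
IFIT1 (chr10:89392453-89392545, + strand): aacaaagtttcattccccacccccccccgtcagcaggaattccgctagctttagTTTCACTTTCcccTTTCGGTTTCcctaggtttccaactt
IFIT5 (chr10:89414523-89414548, + strand): TTTCGGTTTCtgaagcttacgtttag
DDX58 (chr9:32526209-32526366, - strand): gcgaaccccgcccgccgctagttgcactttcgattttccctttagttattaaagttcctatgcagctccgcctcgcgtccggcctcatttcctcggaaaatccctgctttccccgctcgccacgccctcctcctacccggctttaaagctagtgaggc

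Among tested genes with a window, the 19 with an ISRE match had a median log2 fold change of 0.96 in EW8 and 0.30 in TC71. The 13 without a match had 0.85 and 0.44. The same medians over all genes with a window were 0.15 in EW8 and 0.02 in TC71 for the 309 with a match, and 0.04 and 0.01 for the 10612 without. Upregulated genes in EW8 were 9 of the 19 with a match and 5 of the 13 without, while among all tested genes with a window they were 20.4% of those with a match and 12.7% of those without. Genes with a match ran from -0.42 (IFIT5) to 3.47 (GBP1) in EW8, and those without from -0.33 (IRF9) to 5.11 (RSAD2). OASL, IFIT2, GBP2, DHX58 and IRF7, all upregulated in EW8, had no window and are in neither group. The medians therefore leave out several of the largest changes.

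**Figure D3:**
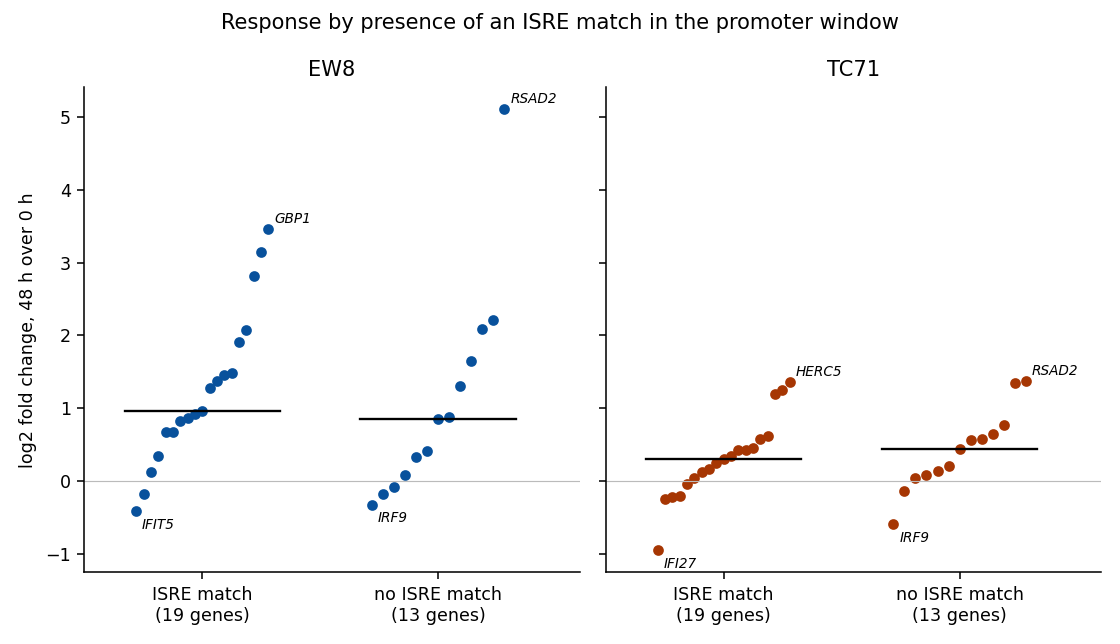
Log2 fold changes at 48 h over 0 h in EW8 (left) and TC71 (right) of the 32 tested genes with a promoter window, split by the presence of an ISRE match, with 1 point per gene and a black line at the median. The medians with and without a match are 0.96 and 0.85 in EW8 and 0.30 and 0.44 in TC71. OASL, IFIT2, GBP2, DHX58 and IRF7, upregulated in EW8, have no window and are not drawn.

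The DNA sensing genes CGAS and STING1 changed by at most 0.21 on the log2 scale with TMM factors. Of the 4 RNA sensing genes, 3 (DDX58, IFIH1 and DHX58) rose in EW8, against 37.0% of all genes, and TRIM25 did not. CGAS, the enzyme that makes the messenger cGAMP on DNA, was at 49.2, 44.7 and 45.8 CPM in EW8 at 0 h and at 47.3, 46.6 and 45.9 CPM at 48 h. The groups overlapped, and the log2 fold change was -0.00 (SE 0.05, adjusted p = 0.985), but with libraries scaled by total counts it was 0.12 (adjusted p = 0.0387). In TC71 it went from 27.4, 27.0 and 28.9 to 33, 31.5 and 31.8 CPM, with every library at 48 h above every one at 0 h (log2 fold change 0.21, SE 0.06, adjusted p = 0.00348). STING1, the cGAMP receptor, rose by 0.21 (adjusted p = 0.000422) in EW8 and by 0.19 (adjusted p = 0.00114) in TC71 on the log2 scale, with no overlap between times in either line, and the value in EW8 was 0.33 with total counts.

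DDX58 (RIG-I; chr9:32455302-32526208, - strand), which binds short double-stranded RNA with a 5′ triphosphate, was at 5.21, 5.38 and 4.91 CPM in EW8 at 0 h and at 15.6, 15.3 and 17.1 CPM at 48 h. The TC71 libraries held 8.49, 7.06 and 8.77 CPM at 0 h and 9.39, 9.85 and 9.0 CPM at 48 h. The rise in EW8 was 1.64 (SE 0.10, adjusted p = 2.1e-16) on the log2 scale. In TC71 the times did not overlap either, but the value, 0.20, did not pass the test (adjusted p = 0.0798), which it did with total counts (0.26, adjusted p = 0.0287). IFIH1 (MDA5; chr2:162267074-162318684, - strand), the sensor of long double-stranded RNA, was at 9.42, 9.91 and 10.3 and then 26.6, 27.1 and 29.5 CPM in EW8, and at 7.52, 8.39 and 8.48 and then 11.8, 10.9 and 10.1 CPM in TC71. It rose in both lines, by 1.49 (SE 0.08, adjusted p = 1.24e-17) in EW8 and 0.42 (SE 0.09, adjusted p = 0.000267) in TC71. The response of DDX58 was larger in EW8 by 1.44 (adjusted p = 1.78e-10) and that of IFIH1 by 1.06 (adjusted p = 7.77e-09). Without replicate 3 of TC71 at 48 h, this difference for IFIH1 lay just under a fold of 2. DHX58 (LGP2; chr17:42101404-42112714, - strand), a relative that tunes the other helicases, was at 0.175, 0.172 and 0.275 CPM in EW8 at 0 h and at 2.39, 1.05 and 2.15 CPM at 48 h, a rise of 3.06 (SE 0.39, adjusted p = 1.82e-08). TC71 held 1, 1 and 0 counts of it before removal and 0, 4 and 4 after, a ratio of 3.35 with a 95% counting interval of 0.668 to 32.4. TRIM25, the ubiquitin ligase that acts on RIG-I, stayed between 45.2 and 62.3 CPM in all 12 libraries and passed the test in neither line, although with total counts it rose in TC71 (0.13, adjusted p = 0.0233). DDX58 shares exonic sequence with a gene model on its own strand, as do TRIM25, IRF9, IFIT2 and IFI6, so reads could be split between them.

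Of the 6 transcription factors, IRF7 and IRF1 were upregulated in EW8, against 13.9% of all genes, and 5 of 6 rose in each line, against 37.0% in EW8 and 22.9% in TC71. IRF7 (chr11:612553-615983, - strand), the factor that amplifies interferon production, was at 1.01, 0.630 and 0.702 CPM in EW8 at 0 h and at 3.30, 2.86 and 3.57 CPM at 48 h. TC71 started at 2.05, 1.86 and 1.90 CPM and reached 3.93, 3.13 and 3.25 CPM. Times did not overlap in either line, with log2 fold changes of 2.05 (SE 0.21, adjusted p = 1.08e-10) and 0.82 (SE 0.16, adjusted p = 0.000101) and a difference between the lines of 1.23 (adjusted p = 0.000296). IRF1 (chr5:132440440-132508719, - strand), which is induced by interferon gamma and by other stress signals, went from 3.77, 3.95 and 4.03 to 10.6, 9.02 and 9.54 CPM in EW8. In TC71 it went from 9.05, 10.2 and 11.8 to 17.4, 16.8 and 18.4 CPM. Its log2 fold changes were 1.31 (SE 0.12, adjusted p = 5.64e-12) and 0.76 (SE 0.09, adjusted p = 1.02e-08). The mean in EW8 at 48 h, 9.72 CPM, lay near the 10.4 CPM of TC71 at 0 h, and the libraries of these groups overlapped. IRF3, which the kinases TBK1 and IKBKE phosphorylate once the sensors have signalled through their adaptors, rose by 0.27 (adjusted p = 0.00015) and 0.14 (adjusted p = 0.0454) on the log2 scale from a high level (41.4 and 47.6 CPM on average at 0 h). Exons of IRF3 overlap those of BCL2L12 on the other strand, which rose by 0.60 (adjusted p = 3.62e-10) in EW8 and by 0.19 (adjusted p = 0.015) in TC71, and the part of its reads in IRF3 was not tested. STAT2 rose by 0.32 (adjusted p = 8.72e-06) and 0.14 (adjusted p = 0.0483), and IRF2, often a repressor, rose by 0.68 (adjusted p = 1.35e-05) and 0.68 (adjusted p = 1.64e-05). IRF9, the DNA-binding partner of STAT2, was low and did not pass the test, with 0.960 ± 0.269 and 0.727 ± 0.161 CPM in EW8 (SD, n = 3) and 0.961 ± 0.144 and 0.649 ± 0.247 CPM in TC71. Exons of IRF1 overlap those of IRF1-AS1 on the other strand, which had at most 21 counts in any library.

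ISG15, a ubiquitin-like protein that is attached to other proteins, its ligase HERC5 and the related HERC6 were upregulated in EW8, while its conjugating enzyme UBE2L6 was not. ISG15 (chr1:1001138-1014540, + strand) was at 10.3, 9.39 and 9.91 CPM in EW8 at 0 h and at 43.5, 38.8 and 42.7 CPM at 48 h. TC71 libraries were at 9.61, 11.5 and 8.48 CPM and then 16, 13.4 and 15.5 CPM. Times did not overlap in either line. From means of 9.88 and 9.87 CPM at 0 h, it rose by 2.07 (SE 0.08, adjusted p = 6e-21) in EW8 and by 0.61 (SE 0.09, adjusted p = 1.86e-06) in TC71, a difference of 1.46 (adjusted p = 1.97e-11). HERC5 (chr4:88457119-88506163, + strand), the main ligase for ISG15 in human cells, was at 0.876, 0.917 and 0.732 CPM and then 5.16, 5.36 and 6.90 CPM in EW8. In TC71 its libraries had 1, 0 and 4 counts, and 3, 6 and 7 after 48 h. The rise in EW8 was 2.81 (SE 0.21, adjusted p = 4.27e-14), and the value in TC71, 1.36, did not pass the test (adjusted p = 0.116). It did so without replicate 3 of TC71 at 0 h (2.87, adjusted p = 0.0207). HERC6 (chr4:88378739-88443097, + strand), its neighbour and relative, was at 0.263, 0.172 and 0.427 and then 1.12, 1.2 and 1.71 CPM in EW8, a rise of 2.09 (SE 0.35, adjusted p = 2.22e-06), and at 0 or 1 count in every TC71 library. USP18, the protease that removes ISG15 and that damps the type I receptor, rose by 0.78 (adjusted p = 7.05e-12) in EW8 and by 0.47 (adjusted p = 1.05e-05) in TC71. UBE2L6 stayed between 7.27 and 10.8 CPM and passed the test in neither line.

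The IFIT proteins bind viral RNA ends and block its translation, and their genes lie side by side on chromosome 10. IFIT2 (chr10:89283694-89309271, + strand) was at 5.08, 5.33 and 5.34 CPM in EW8 at 0 h and at 96.5, 96.2 and 104 CPM at 48 h. Levels in TC71 were 3.39, 3.43 and 3.64 CPM and then 6.83, 8.21 and 8.13 CPM. These groups stood far apart, with log2 fold changes of 4.23 (SE 0.07, adjusted p = 4.33e-31) and 1.15 (SE 0.10, adjusted p = 6.89e-11). IFIT3 (chr10:89327307-89377473, + strand), which acts together with IFIT1, was at 7.66, 7.39 and 7.84 and then 65.2, 63.5 and 75.2 CPM in EW8, and at 10.6, 9.46 and 9.52 and then 21.3, 23.7 and 22.6 CPM in TC71. Its log2 fold changes were 3.15 (SE 0.08, adjusted p = 2.46e-27) and 1.19 (SE 0.08, adjusted p = 3.36e-14). IFIT1 (chr10:89392546-89406487, + strand), which binds capped RNA that lacks a methyl mark, was at 12, 10.6 and 13.5 and then 30.9, 33.1 and 36.5 CPM in EW8, while in TC71 all 6 libraries lay between 10.1 and 10.9 CPM. It rose in EW8 by 1.46 (SE 0.08, adjusted p = 1.45e-17) and not in TC71 (-0.04, adjusted p = 0.768). IFIT5 (chr10:89414568-89421605, + strand), the next gene, went the other way, from 62.6, 59.3 and 66.2 to 42.9, 50.8 and 47.3 CPM in EW8 and from 51.4, 48.8 and 52.1 to 44, 46.4 and 42.2 CPM in TC71. It fell in both lines with no overlap between times, by 0.42 (adjusted p = 1.06e-07) and 0.20 (adjusted p = 0.00501) on the log2 scale. IFIT5 is also the member of the family with the highest level at 0 h, 52.3 ± 2.61 TPM in EW8 (transcripts scaled by exon length, SD, n = 3), against 9.51 ± 1.11 for IFIT1, 5.48 ± 0.139 for IFIT3 and 4.42 ± 0.114 for IFIT2. At 48 h the order in EW8 was IFIT2 (95.2 ± 3.79 TPM), IFIT3 (55.8 ± 4.84), IFIT5 (44.8 ± 3.78) and IFIT1 (30.2 ± 2.37).

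The difference between the lines was 3.08 (adjusted p = 4.79e-18) for IFIT2, 1.96 (adjusted p = 1.34e-15) for IFIT3 and 1.49 (adjusted p = 3.72e-12) for IFIT1 on the log2 scale. Gaps of 18035, 15072 and 8080 bases separate the 4 genes, all on the + strand. IFIT2 shares exonic sequence with a gene model on its own strand, exons of IFIT2 and IFIT3 overlap exons of LIPA on the other strand, and the sources used here do not give the strand setting of the counting. LIPA had a log2 fold change of -0.46 (adjusted p = 6.89e-10) in EW8 and fell in TC71 as well, by 0.12 (adjusted p = 0.0484).

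**Figure D4:**
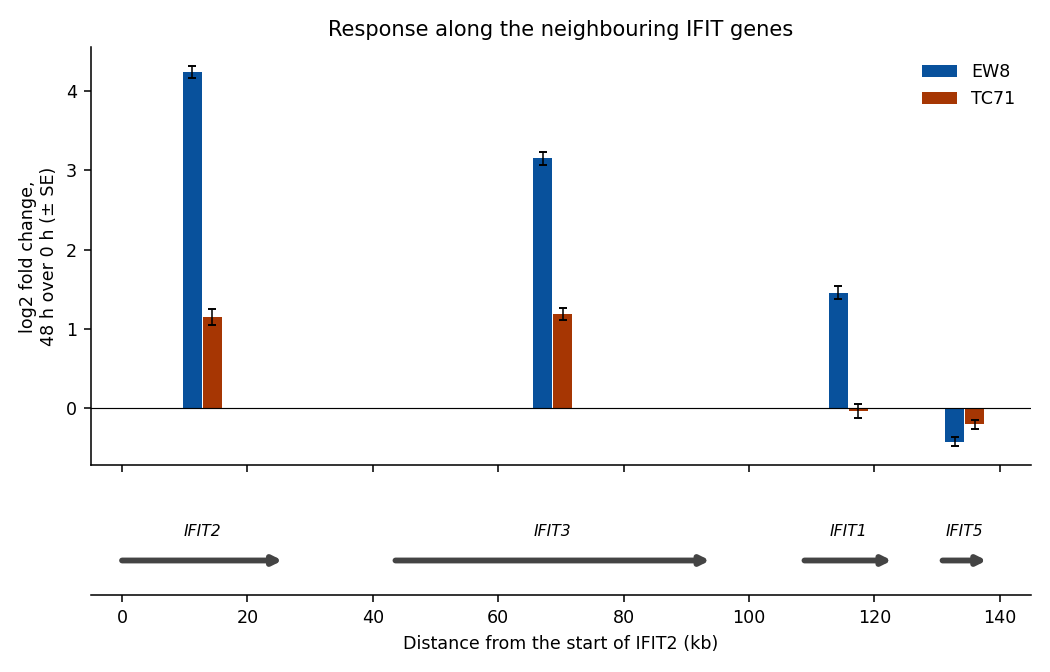
Log2 fold changes at 48 h over 0 h, with bars of 1 standard error, of the 4 IFIT genes in EW8 and TC71, placed above a map in kb from the start of IFIT2 (arrows are the annotated genes in their direction of transcription). The change in EW8 goes from 4.23 at IFIT2 through 3.15 and 1.46 to -0.42 at IFIT5, and in TC71 IFIT2 and IFIT3 stand above 0.

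The OAS enzymes make 2-5A, the messenger that activates RNase L, when they bind double-stranded RNA, and OASL is a relative without that activity that supports RIG-I. OASL (chr12:121017763-121039246, - strand) was at 0.569, 0.458 and 0.549 CPM in EW8 at 0 h and at 21.3, 19 and 26.5 CPM at 48 h. TC71 stayed low, at 0.708, 0.539 and 0.372 CPM and then 0.763, 0.895 and 0.773 CPM. The groups of EW8 were apart by 5.37 (SE 0.17, adjusted p = 4.05e-24), the largest fitted change among the 42 genes, and the value in TC71 was 0.56 (adjusted p = 0.146), although every library at 48 h lay above every one at 0 h. The lines differed in this response by 4.81 (SE 0.44, adjusted p = 5.97e-11), while their difference at 0 h, -0.03 (adjusted p = 0.942), did not pass the test. OAS1 (chr12:112905856-112933219, + strand) was at 0.307, 0.229 and 0.336 and then 1.49, 1.15 and 1.57 CPM in EW8, and had 2, 2 and 3 and then 8, 7 and 7 counts in TC71. It was upregulated in both lines, by 2.20 (SE 0.31, adjusted p = 1.34e-07) and 1.35 (SE 0.54, adjusted p = 0.0438), but the call in TC71 was lost with DESeq2 (adjusted p = 0.104), with no filter on low counts (0.055), when any 1 of the 6 TC71 libraries was left out (adjusted p 0.0513 to 0.153), and without replicate 1 or 3 of EW8 at either time (0.051 to 0.0536). OAS3, the isoform with the strongest sensing of long RNA, rose by 0.83 (adjusted p = 1.9e-08) in EW8 and 0.57 (adjusted p = 0.00158) in TC71. OAS2 had 1, 0 and 3 counts in EW8 with the drug, 7, 7 and 15 without it, and at most 1 in any TC71 library. OAS1, OAS3 and OAS2 lie in this order on chromosome 12, with gaps of 4831 and 1934 bases.

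EIF2AK2 (PKR), the kinase that stops translation on double-stranded RNA, and ADAR, the deaminase that edits such RNA and keeps the sensors quiet, did not rise in either line. ADAR was the most abundant of the 43 genes per length in 3 of the 4 groups, and in CPM it was at 524, 539 and 525 in EW8 at 0 h and at 451, 474 and 476 at 48 h. The same gene in TC71 was at 426, 414 and 419.6 CPM and then 379, 379 and 389 CPM. It fell by 0.18 (adjusted p = 2.74e-05) in EW8 and by 0.13 (adjusted p = 0.00223) in TC71 on the log2 scale, with separate groups in both lines. With libraries scaled by total counts the values were -0.06 (adjusted p = 0.119) in EW8, where the call was lost, and -0.08 (adjusted p = 0.0351) in TC71. EIF2AK2 fell by 0.19 (adjusted p = 0.00127) in EW8 and was at 0.04 in TC71 (adjusted p = 0.5), a difference between the lines of -0.23 (adjusted p = 0.0064). With total counts, neither its fall in EW8 (-0.06, adjusted p = 0.259) nor this difference (-0.16, adjusted p = 0.0551) passed the test. Its exons overlap those of GPATCH11 on the other strand, which rose in both lines.

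Guanylate-binding proteins coat bacteria and damaged membranes, and of the 48 genes GBP1 and GBP2 belong to them. Both were upregulated in EW8, where GBP1 entered the test through the libraries at 48 h, its high group. GBP2 (chr1:89106132-89150456, - strand) was at 0.263, 0.458 and 0.519 CPM in EW8 at 0 h and at 4.04, 5.06 and 4.75 CPM at 48 h. TC71 went from 0.372, 0.539 and 0.414 CPM to 0.992, 1.19 and 0.928 CPM. Times did not overlap in either line, with log2 fold changes of 3.43 (SE 0.23, adjusted p = 2.4e-15) and 1.24 (SE 0.29, adjusted p = 0.000727) and a difference of 2.20 (adjusted p = 4.66e-05). GBP1 (chr1:89051882-89065360, - strand) was at 0.131, 0.401 and 0.0915 and then 2.29, 2.31 and 1.52 CPM in EW8 (3.47, SE 0.37, adjusted p = 3.21e-10), and had 2, 3 and 1 and then 4, 4 and 2 counts in TC71 (0.46, adjusted p = 0.66). The difference between the lines for GBP1, 3.01 (adjusted p = 0.0127), was lost without replicate 2 of TC71 at 0 h (2.53, adjusted p = 0.108). GBP2 shares exonic sequence with GBP7 on its own strand, which has no values in the table.

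PARP9, PARP14 and DTX3L, which add ADP-ribose and ubiquitin and act together in the interferon response, lie close to one another on chromosome 3. PARP14 (chr3:122680839-122730840, + strand) was at 5.74, 7.45 and 7.26 CPM in EW8 at 0 h and at 15.3, 16 and 18 CPM at 48 h. Both times overlapped in TC71, with 1.94, 2.45 and 2.23 CPM and then 1.98, 2.35 and 1.39 CPM. It was upregulated in EW8 (1.27, SE 0.11, adjusted p = 3.99e-12) and not past the test in TC71 (-0.22, adjusted p = 0.371), and the lines differed by 1.49 (adjusted p = 9.49e-07). PARP9 and DTX3L, whose annotated genes overlap at their starts on opposite strands, rose in both lines, PARP9 by 0.88 and 0.44 and DTX3L by 0.67 and 0.30 in EW8 and TC71. PARP9 in EW8 passed a fold of 2 when libraries were scaled by total counts.

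Among the other antiviral effectors, RSAD2 and SAMD9 were upregulated in both lines and BST2 in EW8. RSAD2 (viperin; chr2:6865557-6898239, + strand), which makes a chain terminator from CTP, had 0, 0 and 2 counts in EW8 with doxycycline and 16, 24 and 26 without. TC71 started with 3, 5 and 4 counts and reached 8, 15 and 15. In both lines every library at 48 h was above every one at 0 h. The ratio in EW8 was 40.7, with a 95% counting interval of 10.8 to 343 (adjusted p = 1.31e-09), and intervals of this kind cover counting error only. The log2 fold change in TC71 was 1.38 (SE 0.47, adjusted p = 0.0167). That call was lost with DESeq2 (adjusted p = 0.0509) and without replicate 1 at 0 h (1.12, adjusted p = 0.0996) or replicate 2 at 48 h (1.19, adjusted p = 0.0684). CMPK2, the nucleotide kinase beside RSAD2 whose annotated gene overlaps it on the other strand, was at 0.41 in EW8 (adjusted p = 0.0825) and rose by 0.57 in TC71 (adjusted p = 0.00385). With total counts it rose in EW8 too (0.54, adjusted p = 0.0232).

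SAMD9 (chr7:93099513-93118023, - strand), a restriction factor of poxviruses, was at 0.569, 1.15 and 1.1 CPM in EW8 at 0 h and at 2.29, 2.66 and 2.40 CPM at 48 h. TC71 libraries were at 0.298, 0.196 and 0.703 CPM and then 0.725, 0.895 and 1.24 CPM, and neither line overlapped between times. Its log2 fold changes were 1.37 (SE 0.26, adjusted p = 1.61e-05) and 1.25 (SE 0.35, adjusted p = 0.00417), with a difference of 0.13 (SE 0.47). In TC71 the fold fell under 2 without replicate 2 at 0 h (0.97) or replicate 3 at 48 h (0.99). BST2 (tetherin; chr19:17402939-17405630, - strand), which holds budding virus on the cell, had 1, 1 and 1 and then 2, 6 and 2 counts in EW8, a ratio of 4.12 with a counting interval of 1.06 to 23.3 (adjusted p = 0.0496). This call was lost with DESeq2 (adjusted p = 0.0745), without any 1 of 4 EW8 libraries (replicates 1, 2 and 3 at 0 h and replicate 2 at 48 h, 1.21 and adjusted p = 0.327 without the last), without 5 of the TC71 libraries one at a time (replicates 1, 2 and 3 at 0 h, 1 and 3 at 48 h, adjusted p 0.0502 to 0.0541), with DESeq2 size factors (0.0508), with no filter (0.0541) and in a fit that was not robust (0.051). ISG20, an exonuclease of RNA, rose in EW8 by 0.91 (adjusted p = 0.011), with no overlap between times, and was at -0.25 in TC71 (adjusted p = 0.681). It passed a fold of 2 in EW8 with total counts (1.04) or without replicate 3 at 0 h (1.09). TRIM21, a cytosolic antibody receptor, was at 0.12 in EW8 (adjusted p = 0.403) and rose by 0.34 in TC71 (adjusted p = 0.0304).

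Of the 5 measured genes of the IFI group, whose names mark only that interferon induces them, 4 rose in EW8, each by less than a fold of 2, against 37.0% of all genes, and IFI35 did in TC71, against 22.9%. With total counts IFI44 (0.22, adjusted p = 0.029) and IFI44L (0.29, adjusted p = 0.0299) rose in TC71 as well, against 28% of all genes. IFI6, a mitochondrial and endoplasmic reticulum protein that delays apoptosis, was at 5.65, 5.33 and 4.70 CPM in EW8 at 0 h and at 9.57, 8.67 and 10 CPM at 48 h. TC71 libraries were at 10.7, 10.5 and 10.1 CPM and then 11.3, 10.7 and 12 CPM. The rise in EW8 was 0.87 (SE 0.11, adjusted p = 8.19e-09), and its libraries at 48 h were still below all 6 of TC71. IFI44, which had the second highest level per length of the 43 genes in EW8 at both times, rose by 0.67 (adjusted p = 4.22e-13) there, from 51.3 ± 2.35 to 82.1 ± 2.39 CPM (SD, n = 3). Its neighbour IFI44L rose by 0.34 (adjusted p = 0.000585), and IFI35 by 0.85 (adjusted p = 4.03e-05) in EW8 and 0.65 (adjusted p = 0.000467) in TC71. IFI27 had 2, 2 and 6 and then 4, 5 and 7 counts in EW8 and 13, 13 and 10 and then 4, 12 and 6 counts in TC71. It passed the test in neither line (0.96, adjusted p = 0.145, and -0.95, adjusted p = 0.058), and the lines differed by 1.91 (adjusted p = 0.0262). It entered the test through TC71 at 0 h, the group in which it was high, and this difference is a call that was lost with DESeq2 (adjusted p = 0.0725) and without any 1 of 6 libraries (EW8 replicates 1 and 2 at 0 h and 3 at 48 h, TC71 replicates 2 at 0 h and 1 and 3 at 48 h, adjusted p 0.0526 to 0.0952). Without replicate 2 of TC71 at 48 h, IFI27 was downregulated in TC71 (-1.54, adjusted p = 0.0105).

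The log2 fold change in EW8 less that in TC71 was above 0 for 13 of the 42 genes past a fold of 2 and the adjusted p, against 7.28% of all genes tested, and for 19 at the adjusted p alone, against 25.7%. It was below 0 past a fold of 2 for none, against 0.981% of all genes (0 also with DESeq2, and 4 at an unadjusted p below 0.05), and for 4 at the adjusted p alone, against 22.4%. These were EIF2AK2, CGAS, IFIT5 and TRIM25, with differences between -0.23 and -0.17 on the log2 scale. IFIT5 fell more in EW8, EIF2AK2 fell in EW8 alone, CGAS rose in TC71, and TRIM25 passed the test in neither line. With total counts none of the 4 passed the test (-0.16 to -0.10, adjusted p 0.0551 to 0.246), against 17.8% of all genes with such a difference below 0. The median difference was 0.52, and that of all genes tested was 0.04. The 6 genes upregulated in both lines were 31.6% of those upregulated in EW8 and 100% of those upregulated in TC71. Over all genes tested, 460 were upregulated in both lines, which is 20.1% of the 2294 in EW8 and 85.3% of the 539 in TC71. Each line has its own control libraries.

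Levels of the 2 lines were also compared before doxycycline was removed. At 0 h, 9 of the 42 genes were higher in EW8 past the threshold, against 4.77% of all genes tested, and 6 were lower, against 11.9%. At the adjusted p alone, 17 were higher, against 32.8%, and 16 lower, against 32.9%. With total counts, 14 were higher, against 23.7%, and 16 lower, against 42%. Higher in EW8 were HERC6, HERC5, DHX58, IFI44, PARP14, OAS1, IFI44L, OAS3 and SAMD9. The abundant one was IFI44, at 51.3 ± 2.35 CPM in EW8 and 9.20 ± 1.02 CPM in TC71 (SD, n = 3), a log2 difference of 2.48 (SE 0.07, adjusted p = 8.22e-26). HERC5 differed by 3.46 (SE 0.51, adjusted p = 3.08e-07), PARP14 by 1.64 (SE 0.15, adjusted p = 1.75e-11), IFI44L by 1.5 (adjusted p = 2.09e-15) and OAS3 by 1.37 (adjusted p = 5.62e-11). HERC6 had 23 counts over the 3 EW8 libraries and 1 over the 3 of TC71, a ratio of 22.5 with a counting interval of 3.65 to 926, and DHX58 had 16 and 2 (7.82, interval 1.84 to 70.1). Lower in EW8 were BST2, RSAD2, IFI27, IRF1, IRF7 and IFI6, of which IFI27 entered the test through TC71 at 0 h, its high group. BST2 had 3 counts in EW8 and 38 in TC71, 13.0-fold lower in EW8 with an interval of 4.11 to 65.6. RSAD2 had 2 and 12 counts, 6.14-fold lower with an interval of 1.37 to 56.5. IRF1 differed by -1.40 (SE 0.11, adjusted p = 5.05e-13), IRF7 by -1.31 (SE 0.22, adjusted p = 3.98e-06) and IFI6 by -1.01 (SE 0.10, adjusted p = 1.06e-10). Calls that were lost when a library was left out were those of RSAD2 (adjusted p 0.067 without replicate 1 of EW8 and 0.0601 without replicate 2 of TC71), OAS1 (0.054 without replicate 3 of EW8 and 0.0541 without replicate 1 of TC71) and DHX58 (0.065 without replicate 3 of EW8). IFI6 fell under a fold of 2 without replicate 3 of EW8 (-0.92), and just under it without replicate 1 of TC71. SAMD9 did so without replicate 2 of TC71 (0.92), and just under it without replicate 1 of TC71.

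Per length, in TPM, the genes ran in EW8 at 0 h from 0.0130 TPM (RSAD2) to 157.5 TPM (ADAR). At 0 h the median of the 43 genes was 2.42 TPM in EW8 and 3.02 TPM in TC71, and at 48 h it was 6.68 and 5.44 TPM. The medians of all genes matched to the annotation were 5.94 and 7.0 TPM at 0 h and 7.54 and 7.77 TPM at 48 h. In EW8 the number of genes at 10 TPM or more went from 13 to 19 of the 43. ADAR (158 ± 2.97 TPM), IFI44 (91.8 ± 3.93), IFIT5 (52.3 ± 2.61) and STING1 (45.8 ± 2.26) led in EW8 at 0 h (SD, n = 3). These 4 means stood apart from one another by more than their SDs. At 48 h ISG15 (200 ± 12 TPM) led, followed by IFI44 (168 ± 3.82) and ADAR (159 ± 4.19), and each mean stood apart from the next by more than its own SD. In TC71 at 48 h the order was ADAR (129 ± 4.69 TPM), STING1 (106 ± 4.31) and ISG15 (71.3 ± 7.17).

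**Figure D5:**
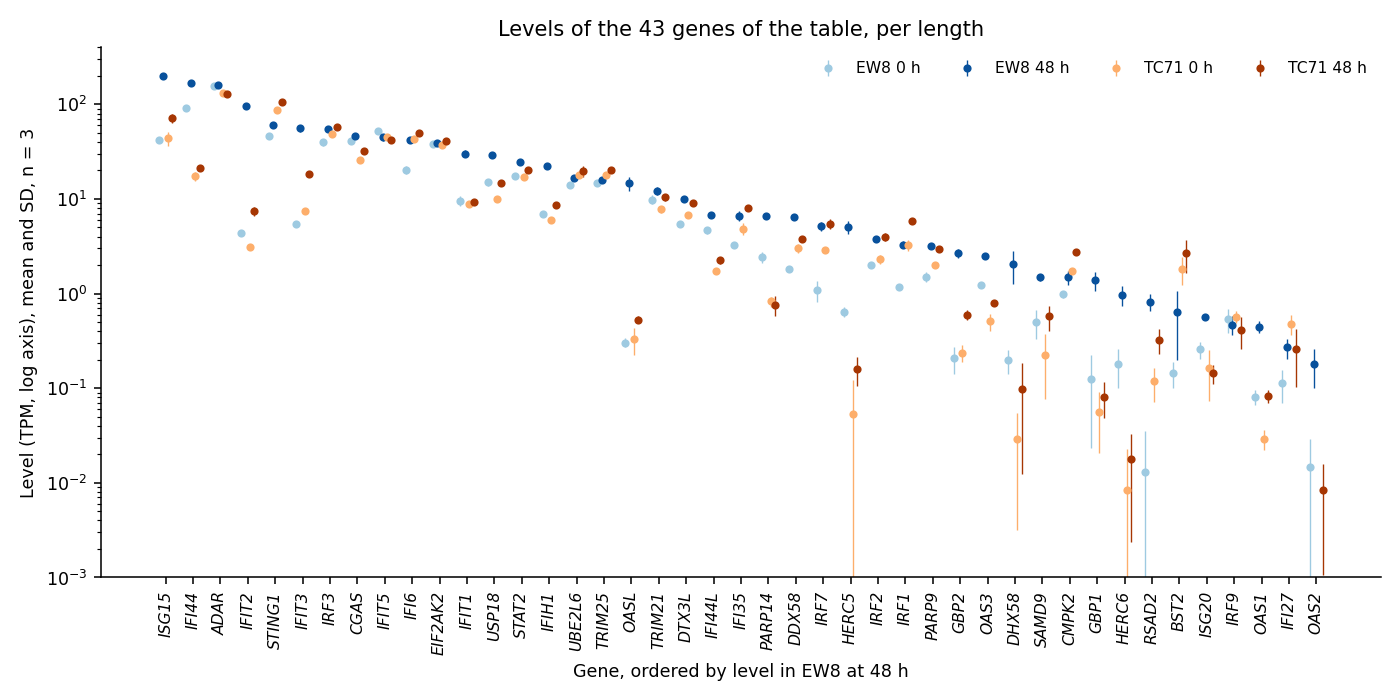
Mean TPM with SD (n = 3 libraries) on a log axis of the 43 genes in the table in each of the 4 groups, ordered by the level in EW8 at 48 h, with SD bars that would reach 0 running to the bottom of the plot and OAS2 in TC71 at 0 h, which had no counts, not drawn. The genes run from ISG15 and IFI44 at the top to IFI27 and OAS2 at the bottom.

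Upstream of these genes, 1 of 21 interferon ligand genes looked up has values in the table, and the receptor subunits changed by less than a fold of 2 with TMM factors. The ligand was IFNL1, a type III interferon. It had 0, 0 and 0 counts in EW8 with doxycycline and 11, 6 and 20 without, at least 15.2-fold higher against a floor of 3 counts over the group, and 1 count in all TC71 libraries together. It was too low to be tested. The receptor subunit for it, IFNLR1, was at 6.73 ± 0.458 CPM in EW8 at 0 h and 13.1 ± 0.603 CPM at 48 h (SD, n = 3), a rise of 0.96 (SE 0.10, adjusted p = 6.56e-11). It passed a fold of 2 with total counts (1.09, adjusted p = 2.17e-11). In TC71 it rose by 0.69 (adjusted p = 3.62e-07). Its partner IL10RB rose by 0.36 and 0.26. The type I receptor subunits IFNAR1 and IFNAR2 fell in EW8, by 0.27 (adjusted p = 1.01e-05) and 0.45 (adjusted p = 0.00017), and passed the test in neither direction in TC71. With total counts IFNAR1 was at -0.15 (adjusted p = 0.00582) in EW8 and rose in TC71 (0.14, adjusted p = 0.0149). IFNGR1 rose in EW8 by 0.24 (adjusted p = 0.00157), IFNGR2 fell there by 0.36 (adjusted p = 1.37e-05), and both missed the threshold in TC71.

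Among 11 JAK-STAT components and inhibitors, 6 genes were higher and 4 lower at the adjusted p in EW8, against 37.0% and 31.6% of all genes, with 5 higher and 3 lower in TC71, against 22.9% and 19.2%. The kinase JAK1 and the phosphatases PTPN2 and PTPN11 fell in both lines, by 0.09 to 0.35 on the log2 scale, of which PTPN11 in EW8 (-0.06) and JAK1 and PTPN2 in TC71 (-0.04 and -0.12) did not pass the test with total counts, and the inhibitor PIAS1 fell in EW8 (-0.37, adjusted p = 1.42e-06). Upregulated among them were SOCS1, an inhibitor of JAK kinases, with 8, 2 and 9 and then 10, 15 and 17 counts in EW8 (1.43, adjusted p = 0.00206) and 4, 2 and 2 and then 10, 16 and 10 in TC71 (1.87, adjusted p = 0.00336), and CISH, a relative, in EW8 (1.24, adjusted p = 5.09e-05). Of 16 tested sensing adaptors, kinases and nucleases, 9 were higher in each line, against 37.0% of all genes in EW8 and 22.9% in TC71. TRAF3, RNASEH2B and RNASEH2C were lower in EW8 and TRAF3 in TC71, against 31.6% and 19.2% of all genes, but with total counts TRAF3 alone was lower in EW8, against 24.4%. TREX1, the nuclease that clears DNA from the cytosol, rose by 0.74 (adjusted p = 1.66e-09) in EW8 and, in TC71, by 0.74 (adjusted p = 1.22e-10). TRAF3, an adaptor of the sensors, fell by 0.81 (adjusted p = 5.02e-17) and 0.22 (adjusted p = 0.000231). TLR3, the endosomal sensor of double-stranded RNA, had 4, 3 and 4 counts in EW8 with doxycycline and 26, 27 and 29 without (3.16, SE 0.42, adjusted p = 4.55e-08), against 0 to 7 in every TC71 library. It entered the test through EW8 at 48 h, the group in which it was high. Its adaptor TICAM1 (TRIF) was upregulated in EW8 (1.03, adjusted p = 3.61e-09). ENPP1, which degrades cGAMP outside the cell, was the most abundant gene called in this list, at 108 ± 4.51 and 319 ± 15.3 CPM in EW8 (1.56, SE 0.04, adjusted p = 1.73e-25) and 47.0 ± 1.02 and 72.5 ± 2.17 CPM in TC71 (0.62, SE 0.05, adjusted p = 1.67e-12). IRF5 was upregulated in both lines from at most 6 counts per library at 0 h (1.43, adjusted p = 0.00885, and 1.61, adjusted p = 0.00546), and it averaged at least 10 counts only in TC71 at 48 h.

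Of 27 further interferon-induced genes tested, 8 were upregulated in EW8, against 13.9% of all genes, and 3 in TC71, against 3.26%. In EW8, 15 rose and 8 fell, against 37.0% and 31.6% of all genes, and in TC71 the counts were 12 and 4, against 22.9% and 19.2%. With total counts, 16 rose and 5 fell in EW8, against 43.6% and 24.4%, and 14 rose and 1 fell in TC71, against 28% and 14.2%. The 3 IFITM genes, membrane proteins that hinder virus entry and close paralogs that can share reads, fell in EW8 by 0.29 (IFITM1), 0.58 (IFITM2) and 0.33 (IFITM3) on the log2 scale, and IFITM1 did not pass the test with total counts (-0.16, adjusted p = 0.177). HELZ2, a nuclear helicase, was at 3.59, 3.32 and 3.51 CPM in EW8 at 0 h and at 40.4, 34.7 and 38.1 CPM at 48 h (3.43, SE 0.11, adjusted p = 3.44e-22). It rose by 1.33 (SE 0.12, adjusted p = 1.86e-10) in TC71. APOL6 (3.44 and 1.5) and PARP10 (2.24 and 1.12) were also upregulated in both lines, and like SOCS1 they averaged at least 10 counts only at 48 h. DDX60 (2.38), DDX60L (2.81), TRANK1 (1.45) and APOL2 (1.41) were called in EW8, and PARP12 was with total counts (1.09). The chemokine CXCL11 had 1 count over the EW8 libraries at 0 h and 46 at 48 h, a ratio of 56.8 with a counting interval of 9.70 to 2291, and it entered the test through EW8 at 48 h alone.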

How the data were processed

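Polyadenylated RNA was made into stranded libraries. The deposited values are raw counts for each gene in 12 libraries, which the authors obtained after quality control (FastQC) and alignment to hg38 (STAR). How reads were counted, on which annotation and with which strand setting, is not given in the sources used here. No gene has fewer than 21 counts in total. The test was the quasi-likelihood test of edgeR 4.0.16 (R 4.3.3): filterByExpr (minimum count 10, total 15), TMM factors, and a robust quasi-likelihood fit of 4 group means over all 12 libraries. The response of each line (48 h less 0 h), the difference of both responses, and EW8 less TC71 at 0 h were tested. Adjusted p-values (Benjamini-Hochberg) are over all 16515 genes tested. Fold changes are on the log2 scale of the fit. CPM used TMM-scaled library sizes, and TPM used the union of exons in GENCODE 44, matched for 19943 genes. Standard errors (SE) are derived from the quasi-likelihood F statistic. Ratios with a group sum of 1 to 3 counts carry an exact (Clopper-Pearson) interval at 95% over summed counts. Alternatives were DESeq2 size factors, total counts, DESeq2 1.42.0 (Wald test), an unfiltered table, at least 10 counts in every library, each line alone, a replicate block, a fit that was not robust, other thresholds and leaving out each library. The code of the fit was also run on simulated counts, and the outcome is not reported here. Figures were drawn with matplotlib 3.10.9.

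The 48 genes and the other lists were chosen with earlier results of these data known. Any of the 48 genes could be named, and values per library are given for those upregulated in either line and for abundant members of each role. From the other lists, genes upregulated in either line and every interferon ligand and receptor in the table are named, with some others, chosen after their values were seen. Promoter sequences are from RefSeq (GRCh38.p14). DDX58 was matched through its current symbol RIGI.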

Additional observations from a re-analysis of the deposited data

Results flagged for a closer look

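For 13 of the 42 tested genes, the response to removal of doxycycline differed between EW8 and TC71 past the threshold in the test of the difference itself. In all 13 the response in EW8 was the higher of the 2 values, and each difference is given on the log2 scale as EW8 minus TC71. Over all genes tested, 7.28% had such a difference above 0 and 0.981% below 0. Of all genes called in this way, 88.1% had the higher value in EW8. OASL differed by 4.81, RSAD2 by 3.73, IFIT2 by 3.08, GBP1 by 3.01 and GBP2 by 2.20. IFIT3 differed by 1.96, IFIT1 by 1.49, PARP14 by 1.49, ISG15 by 1.46 and DDX58 by 1.44. IRF7 differed by 1.23 and IFIH1 by 1.06. IFI27 differed by 1.91, from values of opposite sign in the 2 lines that passed the test in neither, and it entered the test through TC71 at 0 h, the group in which it was high. The fitted difference for RSAD2 rests on 2 counts in EW8 at 0 h and its size is not firm. No group has 4 or more libraries, so no test was made of single libraries against their group. Without replicate 3 of TC71 at 48 h, which stood apart from the other 2 of its group, the difference remained past the threshold for 11 of the 13 genes and was lost for IFIH1, just under a fold of 2, and for IFI27 (1.69, adjusted p = 0.063).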

How the results depend on the processing

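Leaving out each of the 12 libraries in turn gave 18 to 19 genes upregulated in EW8, 4 to 6 in TC71, 11 to 14 with a higher log2 fold change in EW8 than in TC71, and at 0 h 7 to 9 higher and 5 to 6 lower in EW8. Downregulated genes ranged from 0 to 1 in TC71, the 1 being IFI27 without replicate 2 at 48 h. With at least 10 counts in every library, which leaves 30 of the 42 genes, upregulated genes were 9 in EW8 and 2 in TC71, those with a higher log2 fold change in EW8 were 8, and differences at 0 h were 4 higher and 3 lower. Of the 13210 genes that this filter leaves in all, 1204 were upregulated in EW8 and 197 in TC71. A higher log2 fold change in EW8 was called for 634 of them, and at 0 h 389 were higher and 979 lower. With no fold threshold, 32 rose and 3 fell in EW8, 22 rose and 2 fell in TC71, 4 had a difference between the lines below 0, and 17 were higher and 16 lower in EW8 at 0 h. With the replicate number as a block the counts were 19 in EW8, 6 in TC71, 13 for the difference and 9 and 6 at 0 h, as without it. Deviations of same-numbered libraries from their group means had correlations of -0.138 to -0.0147 across genes, so the numbers do not pair the libraries. Over all genes, the counts that moved by over 1.5 times were those with at least 10 counts in every library (1204 higher and 306 lower in EW8 against 2294 and 554, 197 and 36 in TC71 against 539 and 141, 634 and 98 for the difference against 1202 and 162, 389 and 979 at 0 h against 787 and 1964), those with no fold threshold (6103 and 5226, 3776 and 3179, 4243 and 3697, 5415 and 5439), the lower genes in EW8 with total counts (345) and those of the difference at an adjusted p below 0.01 (104). Total counts in place of TMM factors moved the median of all genes in EW8 from 0.03 to 0.16, of the difference from 0.04 to 0.12 and at 0 h from -0.01 to -0.14, so small changes are relative to the scaling. Of 2390 values of single genes under alternatives, 2285 kept their direction and their side of the threshold and 11 changed sign, all of them small and none past a fold of 2. CGAS in EW8 was at 0.12 (adjusted p = 0.0387) with total counts, at 0.00023 with the replicate block and between -0.0609 and 0.011 with 1 library left out. Leaving out 1 library gave -0.0029 to 0.14 for UBE2L6 in EW8, -0.035 to 0.12 for UBE2L6 in TC71, -0.0053 to 0.075 for EIF2AK2 in TC71 and -0.54 to 0.19 for ISG20 in TC71. TRIM25 in EW8 was at 0.034 and IFIT1 in TC71 at 0.013 with total counts. The cause of these changes was not tested. A fit of each line alone gives no comparison at 0 h. Genes with a few counts per library, such as BST2, RSAD2, OAS1, GBP1, DHX58, HERC6, IFI27 and, in TC71, HERC5, carry wide errors, and their values are not firm.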

Other observations

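Several interferon-induced genes that were too low to be tested were counted in EW8 mainly after removal of doxycycline. CXCL10, a chemokine that draws T cells, was counted 0, 0 and 0 times with doxycycline and 5, 14 and 8 times without it in EW8, at least 11.1-fold higher against a floor of 3 counts over the group, and 4 counts in all TC71 libraries together. GBP3 had 2 counts over the EW8 libraries at 0 h and 18 at 48 h, a ratio of 11.1 with a counting interval of 2.66 to 98.8. GBP4 had 1 and 10, a ratio of 12.4 with an interval of 1.76 to 536. In TC71, GBP3 went from 4, 2 and 0 to 5, 7 and 7 counts and GBP4 from 0, 2 and 3 to 6, 5 and 10. CXCL10, GBP3 and GBP4 were chosen after their values were seen.

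NLRX1, a mitochondrial protein that damps signalling by MAVS, was listed at 0 counts in all 6 EW8 libraries and at 115, 86 and 97 counts (0 h) and 148, 134 and 187 counts (48 h) in TC71. At 0 h it was at least 101.6-fold lower in EW8, against a floor of 3 counts over the group, and it was chosen after its values were seen.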
